A study of Mus musculus with 19 samples.

Results

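Spiral ganglion neuron subtype markers were followed in RNA sequencing libraries made from mouse cochleae, the coiled hearing organs of the inner ear. The set holds 7 genes of the 18639 in the deposited table, chosen by name: Calb2, Calb1, Lypd1 and Pou4f1 for the subtypes of type I neurons, and Prph, Th and Gata3 for type II neurons. All 7 had reads in at least 1 library and all 7 passed the filter on low values (at least 1 normalized read in at least 2 of the 14 sorted whole-cochlea libraries). A normalized read is a read count divided by a factor of its library.

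Spiral ganglion neurons carry sound information from hair cells to the brainstem. Type I neurons, the great majority, are myelinated and contact inner hair cells, and they fall into subtypes Ia (rich in Calb2), Ib (Calb1) and Ic (Lypd1 and Pou4f1). Type II neurons are few and thin, contact outer hair cells, and are known by Prph, Th and Gata3. Several of these genes are also active outside the spiral ganglion: Calb1 and Calb2 in hair cells, Gata3 in hair cells, supporting cells and lymphocytes, and Th and Prph in sympathetic neurons.

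Cells were sorted by green fluorescent protein (GFP). Every mouse of every group carried 1 copy of Cx3cr1, a chemokine receptor gene of macrophages, replaced by GFP (CX3CR1 GFP/+), so no group was wild type at this gene. GFP-positive cells are called macrophages and GFP-negative cells nonmacrophages, after the labels, and the nonmacrophages hold all other cell types together. Each isolate came from 1 mouse. Whole cochleae of old mice (12 to 14 months) gave 4 macrophage and 4 nonmacrophage libraries, and those of young mice (1.5 months) gave 2 macrophage and 4 nonmacrophage libraries. Young mice also gave 1 unsorted cochlea library, and 1 macrophage and 1 nonmacrophage library each from the auditory nerve and the lateral wall. Replicate numbers below are those of the labels.

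Depth ran from 20.6 to 71.6 M (mega) reads assigned to genes. The old libraries held 50.6 to 71.6 M and the young sorted whole-cochlea libraries 24.9 to 35.1 M, apart from nonmacrophage replicate 14 with 60.2 M, and the unsorted one held 20.6 M, so depth and age could not be told apart. Young macrophage replicates 9 and 15 had reads in the fewest genes (11652 and 13532, against up to 17708 elsewhere), and they differed from each other in most of the 7 members. The sort separated macrophage genes: 9 of 9 macrophage markers, Cx3cr1 and Csf1r among them, were higher in macrophages at each age. It did not separate neuronal RNA the same way. The summed level of 10 pan-neuronal genes (Snap25, neurofilaments and others) was 280039 to 356591 normalized reads in old macrophages and 17584 to 28919 in old nonmacrophages, and 9 of the 10 passed the test as higher in macrophages at each age. All results on the members below stand beside that fact. In bulk libraries fewer cells of a type and less RNA per cell cannot be told apart.

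Th and Prph had the most negative log2 differences between old macrophages and old nonmacrophages, although only that of Th passed the test. The 250 bases before their RefSeq start sites (assembly GRCm38.p6, written 5′ to 3′ along the gene) are shown. RefSeq start sites were matched for 5 of the 7 members. Capitals mark TGACGTCA, the cAMP response element, in Th and TATAAA, the TATA box, in Prph. Both strands were searched, and neither motif overlapped another searched motif. The Th window lies at chr7:142899996-142900245 on the minus strand and the Prph window at chr15:99054924-99055173 on the plus strand.
Th: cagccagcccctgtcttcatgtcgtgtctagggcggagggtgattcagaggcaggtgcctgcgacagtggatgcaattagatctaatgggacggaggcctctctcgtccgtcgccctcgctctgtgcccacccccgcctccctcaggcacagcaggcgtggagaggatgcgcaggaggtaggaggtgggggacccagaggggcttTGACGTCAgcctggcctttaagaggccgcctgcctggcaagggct
Prph: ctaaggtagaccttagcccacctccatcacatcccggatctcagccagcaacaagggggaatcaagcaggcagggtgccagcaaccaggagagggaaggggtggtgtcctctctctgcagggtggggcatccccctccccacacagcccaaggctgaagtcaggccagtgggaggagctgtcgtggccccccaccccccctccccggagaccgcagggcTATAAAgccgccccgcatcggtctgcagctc
The element in Th begins 45 bases before the start site, and 1.55% of 32851 RefSeq promoter windows of the same length hold it. The TATA box of Prph begins 31 bases before the start, and 12.4% of windows hold one. A match describes the letters and says nothing of a factor's binding.

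The first question was how the members divided between macrophages and nonmacrophages of the old cochlea. The 4 type I markers were all higher in old macrophages, by 15.0 to 37.7 times as ratios of means, and the 3 type II markers were all lower there, so that the marker classes pointed in opposite directions. Of the 7, 5 passed the test (limma, adjusted p under 0.05 over 18441 genes): 4 rose in macrophages and Th fell. Over all genes 18.6% were called, 9.25% as higher and 9.36% as lower. The median log2 difference was 4.45 for the 4 type I markers and -2.18 for the 3 type II markers, against -0.19 for all genes tested. Each member's 4 macrophage libraries lay wholly on one side of its 4 nonmacrophage libraries. How many genes at large were separated in this way was not counted, so the separation is not read as particular to the members. With only the old libraries fitted, 10654 of 18272 genes were called.

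**Figure D1:**
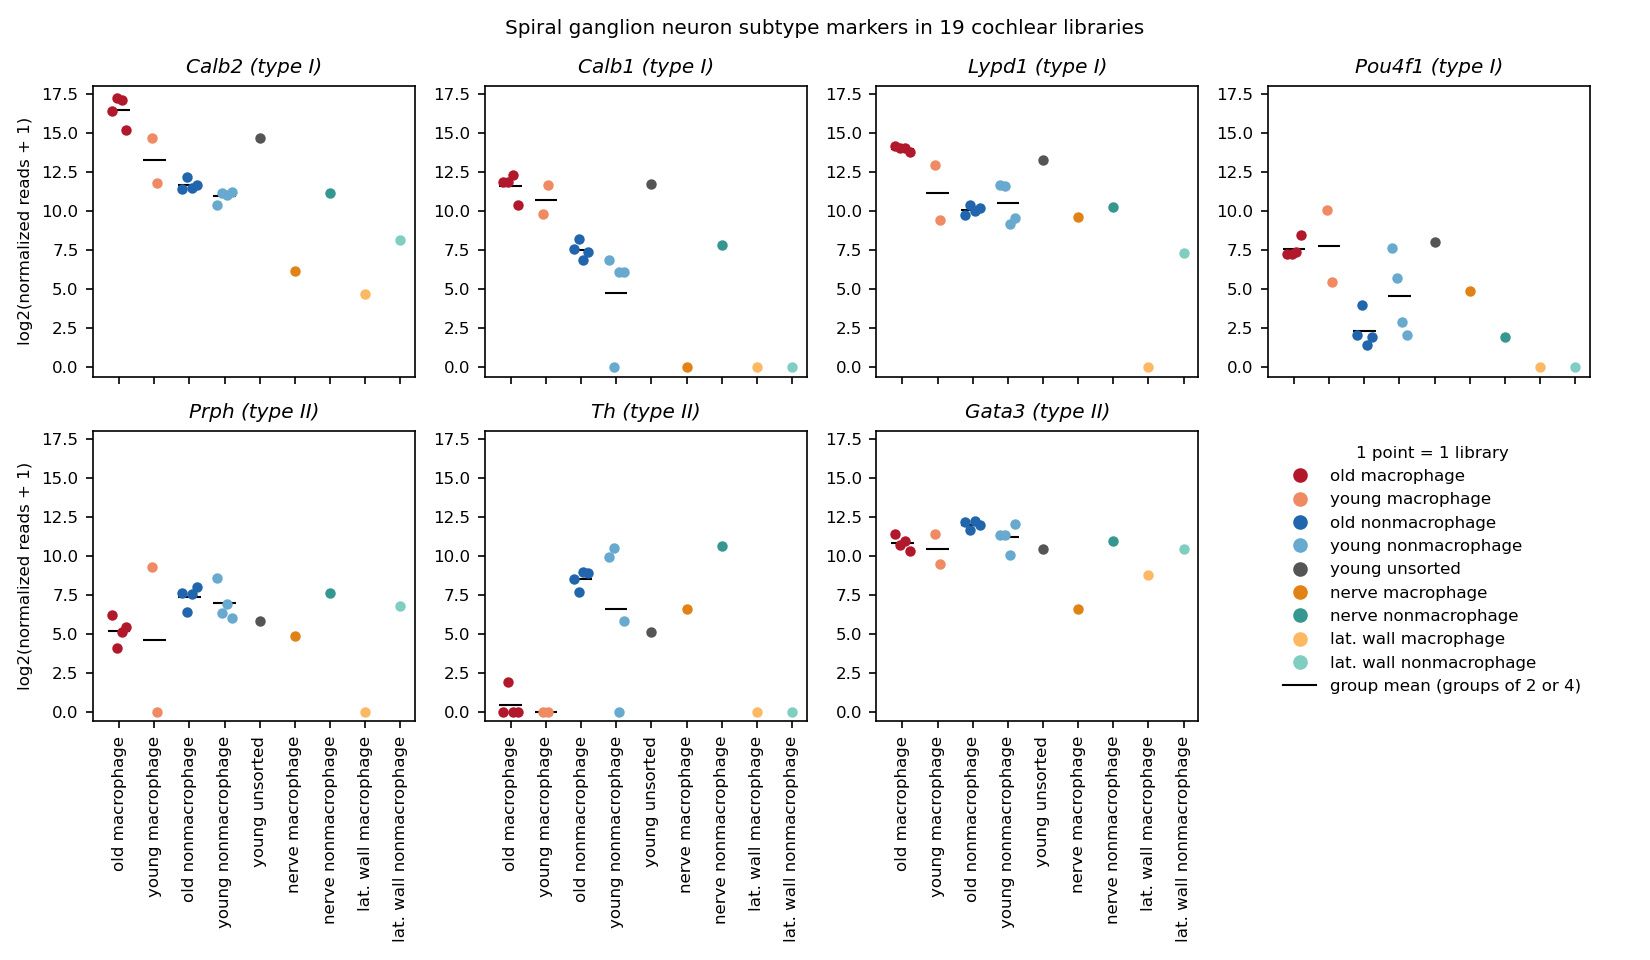
Level of each member as log2(normalized reads + 1), 1 point per library, by group, with bars at the means of groups of 2 or 4. Among whole-cochlea groups, Calb2 and Calb1 have higher means in the macrophage and unsorted groups than in the nonmacrophage groups, whereas the nerve and lateral wall macrophage libraries are low for them, and Th is at or near 0 in the 6 whole-cochlea macrophage libraries.

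Calb2 encodes calretinin, a calcium-binding protein of type Ia neurons (mm10, chromosome 8, 110137502 to 110168210, minus strand). It stood at 88056, 155568, 141900 and 37104 normalized reads in old macrophage replicates 1, 7, 12 and 17, and at 2725, 4676, 2776 and 3173 in old nonmacrophage replicates 10, 11, 18 and 19. Replicate 17 was the lowest of the macrophage libraries and still far above every nonmacrophage library. The means were 105657 ± 54204 and 3338 ± 915 (SD, n = 4 each), a log2 difference of 4.82 (SE 0.56, limma adjusted p = 8.19e-05).

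Calb1, which encodes calbindin and marks type Ib neurons (chromosome 4, 15881264 to 15908064, plus strand), followed at a lower level. In old macrophages it stood at 3620, 3675, 5057 and 1331 normalized reads, and in old nonmacrophages at 190, 299, 117 and 166. The groups did not overlap, with replicate 17 again lowest among the macrophages. The log2 difference was 4.07 (SE 1.21, limma adjusted p = 0.0327). That call was lost without any 1 of old macrophage replicates 1, 7 and 12 or old nonmacrophage replicates 10, 11, 18 and 19 (log2 difference 3.83 to 4.31, adjusted p = 0.0561 to 0.09), and with a pseudocount of 0.1 (adjusted p = 0.148).

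Lypd1 encodes a membrane-anchored protein of the Ly6 family and marks type Ic neurons (chromosome 1, 125867622 to 125913101, minus strand). It was the steadiest member in old macrophages, at 18300, 16606, 16838 and 13719 normalized reads, against 846, 1334, 1001 and 1183 in old nonmacrophages. The macrophage libraries spanned a narrower fold range than those of Calb2, and no library overlapped. The log2 difference was 3.92 (SE 0.69, limma adjusted p = 0.00154). Lypd1 shares 1202 exon bases with Gpr39 on the opposite strand, and with a library kit that does not mark strand the reads there cannot be told apart. Gpr39 showed 7496 to 8836 normalized reads in old macrophages and 413 to 531 in old nonmacrophages.

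Pou4f1, a homeodomain transcription factor of sensory neurons that is kept in type Ic cells (chromosome 14, 104461676 to 104467999, minus strand), was the least abundant type I marker. Its normalized reads were 151, 151, 165 and 359 in old macrophages and 3.08, 14.5, 1.67 and 2.74 in old nonmacrophages. Replicate 17, lowest for the other type I markers, was the highest for Pou4f1. Macrophages exceeded nonmacrophages by a log2 difference of 5.27 (SE 1.25, limma adjusted p = 0.0103).

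Th encodes tyrosine hydroxylase, the rate-limiting enzyme of catecholamine synthesis (chromosome 7, 142892752 to 142931128, minus strand). In old nonmacrophages it stood at 362, 208, 499 and 478 normalized reads. In old macrophages it was at 0 in replicates 1, 12 and 17 and at 2.72 (5 reads) in replicate 7, at a floor of 3 reads that amounts to 1.38 to 1.92 normalized reads. Its log2 difference was -8.05 (SE 1.76, limma adjusted p = 0.00645). No member differed more between these groups, in either direction.

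Prph encodes peripherin, an intermediate filament protein of type II and other peripheral neurons (chromosome 15, 99055174 to 99058978, plus strand). Its normalized reads were 71.8, 15.8, 33.6 and 42.7 in old macrophages and 193, 84.7, 183 and 256 in old nonmacrophages. Every macrophage library lay below every nonmacrophage library. The log2 difference of -2.18 (SE 1.46) did not pass the test (limma adjusted p = 0.358), since the shared spread included young macrophage libraries at 620 and 0. With the 8 old libraries fitted alone the same difference had an adjusted p = 0.00326, and without young macrophage replicate 9 or 15 it had an adjusted p = 0.0293 or 0.0221.

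Gata3, a zinc finger transcription factor that persists in type II neurons (chromosome 2, 9857078 to 9890034, minus strand), showed the smallest difference. It stood at 2743, 1644, 1948 and 1269 normalized reads in old macrophages and at 4533, 3166, 4844 and 4074 in old nonmacrophages. No library overlapped, and the log2 difference of -1.17 (SE 0.45) had a limma adjusted p = 0.0943. It passed with the old libraries alone (adjusted p = 0.0012), with quantile normalization (adjusted p = 0.042), and without young macrophage replicate 9 or 15 (adjusted p = 0.0297 and 0.0294). Gata3 shares 77 exon bases with a neighbour on its own strand and 155 with an antisense transcript.

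Beside the type II genes, markers of other cells that express them were read. Supporting cell markers (11 genes) summed to 14769 to 18947 normalized reads in old macrophages and 41528 to 53153 in old nonmacrophages, and 2 of 11 passed as lower, Gjb2 among them. Of the sympathetic neuron markers in the table (5 of 8 on the list, the others not analysed here), Npy passed as lower. Their sums were 315 to 699 in old macrophages and 649 to 958 in old nonmacrophages. Hair cell markers (11 genes) summed to 1878 to 2336 and 3059 to 9443, with 4 lower. T cell and innate lymphoid markers (8 genes) ran the other way, at 668 to 1713 in old macrophages and 91.6 to 183 in old nonmacrophages. Of these, 3 were higher (Cd4, Il1rl1 and Cd28) and 5 did not pass, Lck, Cd3d, Cd3e and Cd3g among them. Over all 19 libraries Cd4 had the highest mean of the 8 (621 normalized reads), ahead of Lck (116), so the sum leans on Cd4. Cerebellar neuron markers (7 genes in the table) summed to 1089 to 2851 in old macrophages, with 1 of the 7 at 0 in each library, and to 2467 to 4251 in old nonmacrophages. Schwann cell and oligodendrocyte markers (10 genes) showed a wide gap, at 125505 to 381851 in old macrophages, with 1 to 2 genes at 0, and 2876230 to 4027900 in old nonmacrophages, with 9 of 10 lower. The part of these cells in the levels of Gata3, Prph and Th was not tested.

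Other genes known from the same neurons were less uniform than the members. Of 6 other type I subtype genes, 3 were higher in old macrophages (Runx1, B3gat1 and Grm8) and the other 3 did not pass, with a median log2 difference of 3.05. Runx1, a transcription factor of type Ic neurons and also of blood cells, averaged 1992 ± 365 and 358 ± 29.6 normalized reads (SD, n = 4 each). Pcdh20, a protocadherin gene and the most abundant of the 6, stood at 611 ± 222 in old macrophages and 3112 ± 886 in old nonmacrophages and did not pass (log2 difference -2.37, limma adjusted p = 0.255). Of 6 other type II genes, 1 was lower, the kinase gene Plk5 at 42.4 ± 12.4 against 378 ± 70.4 (log2 difference -3.16, limma adjusted p = 0.0032), and the median of the 6 was 0.10. Smad3, a mediator of TGF-beta signalling and the most abundant of these, stood at 649 ± 193 against 1045 ± 170 (log2 difference -0.72, limma adjusted p = 0.304).

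**Figure D2:**
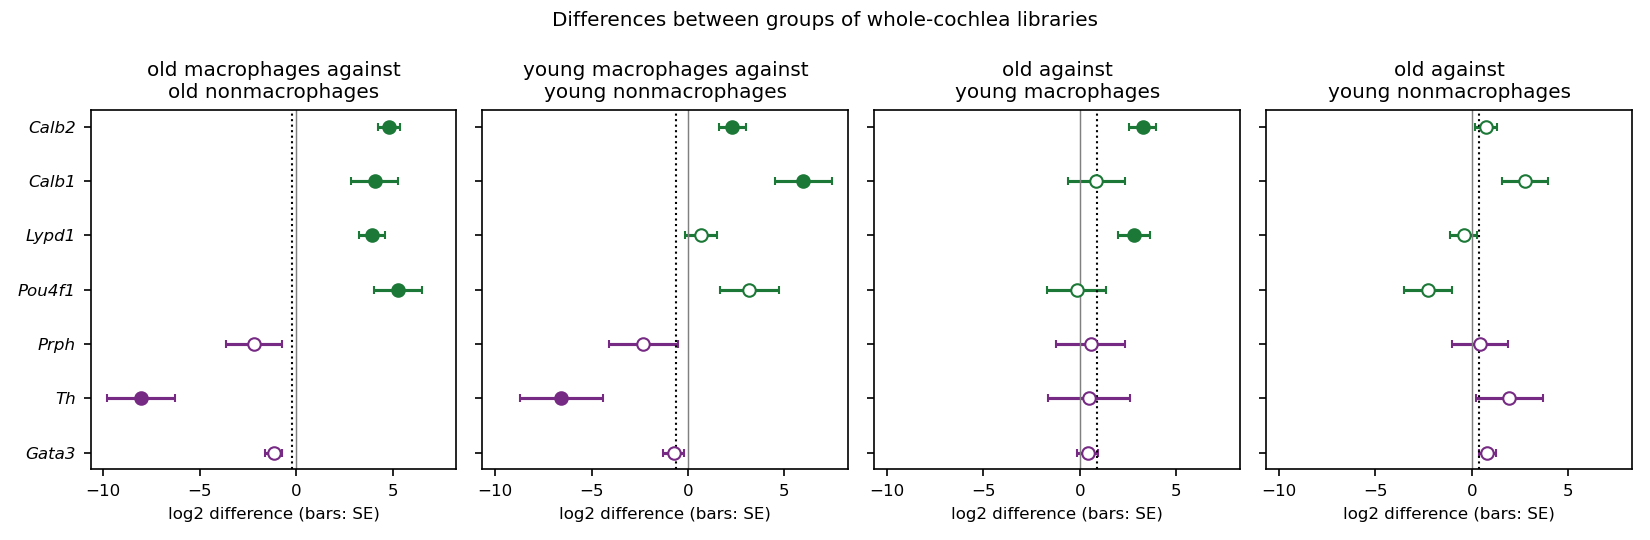
Log2 difference of each member in 4 comparisons of whole-cochlea libraries, with standard errors from limma. Filled symbols have an adjusted p under 0.05, green symbols are type I markers, purple symbols are type II markers, and the dotted line is the median of all genes tested. Type I markers lie to the right and type II markers to the left in the comparison of old macrophages with old nonmacrophages.

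In the young cochlea the same sort was compared with only 2 macrophage libraries. Calb2 and Calb1 were higher in young macrophages, Th was lower, and Lypd1, Pou4f1, Prph and Gata3 did not pass. These 3 of 7 calls stood against 31.5% of all genes called (9.18% higher and 22.3% lower), and the median of all genes was -0.61. The 3 calls were all lost when only the 6 young libraries were fitted.

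Calb2 stood at 26545 and 3501 normalized reads in young macrophage replicates 9 and 15, and at 1328, 2296, 2046 and 2367 in young nonmacrophage replicates 2, 5, 6 and 14. The macrophage libraries were both higher, but replicate 15 only slightly so. The log2 difference was 2.30 (SE 0.69, limma adjusted p = 0.0226), and without replicate 9 it was 0.84 (adjusted p = 0.359).

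Calb1 was at 881 and 3249 in the young macrophages and at 114, 0, 66.9 and 67.9 in the nonmacrophages. Here replicate 15 was the higher one, the reverse of Calb2, and the groups were well apart. The difference came to 5.97 in log2 (SE 1.48, limma adjusted p = 0.00853), and the call held without any 1 library (log2 difference 4.38 to 6.91).

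Th was at 0 in both young macrophage libraries and at 989, 1453, 0 and 54.5 in the young nonmacrophages. Replicates 2 and 5 held nearly all of its reads, and replicate 6 had none, so the groups overlapped at 0. The mean of young nonmacrophages, 624 ± 715 (SD, n = 4), was at least 144-fold higher than the floor of 3 reads per young macrophage library. The log2 difference of -6.56 (SE 2.15) had a limma adjusted p = 0.0343, and leaving out young macrophage replicate 9 or 15, or young nonmacrophage replicate 2, 5 or 14, ended the call (adjusted p = 0.0504 to 0.105).

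The type Ic markers split between the 2 young macrophage libraries. Lypd1 stood at 7967 in replicate 9 and 675 in replicate 15, and Pou4f1 at 1071 and 42.9. In young nonmacrophages Lypd1 was at 3215, 3056, 586 and 751, and Pou4f1 at 194, 51.8, 6.53 and 3.21. Replicates 2 and 5 were the higher nonmacrophage libraries for both genes, and the groups overlapped. The log2 differences were 0.69 (SE 0.84, limma adjusted p = 0.571) and 3.18 (SE 1.53, limma adjusted p = 0.13). Without replicate 15 both passed as higher (2.46 with adjusted p = 0.0172, and 5.49 with adjusted p = 0.0187), and without replicate 9 Lypd1 turned to -1.09. Pou4f1 also passed without young nonmacrophage replicate 2 (4.19, adjusted p = 0.0367).

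The other type II markers split the same way. Prph stood at 620 in young macrophage replicate 9 and at 0 in replicate 15, against 386, 80.4, 117 and 64.7 in young nonmacrophages. Gata3 stood at 2673 and 718, against 2553, 2585, 1041 and 4261. Replicate 9 was above all 4 nonmacrophage libraries for Prph and replicate 15 below all 4 for each gene. Neither difference passed (Prph -2.33, SE 1.79, limma adjusted p = 0.347, and Gata3 -0.75, SE 0.55, limma adjusted p = 0.326). Without replicate 9 both passed as lower (-6.97 with adjusted p = 0.000282, and -1.69 with adjusted p = 0.0459), and without replicate 15 their differences were 2.31 and 0.20.

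The young macrophage libraries also differed in other cells' markers. Hair cell markers summed to 8.78 to 1346 normalized reads in them, with 7 to 10 of 11 genes at 0, and sympathetic markers to 0 to 77.9, with 4 to 5 of 5 at 0. The pan-neuronal sum was 170811 to 265755, against 12004 to 40573 in young nonmacrophages. In the authors' deposited table for this comparison, Calb2, Calb1 and Th had adjusted p-values of 0.000109, 1.16e-05 and 3.18e-05, and the other 4 members had adjusted p-values of 0.0582 to 0.621.

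Age was then compared within each sort. Among macrophages, Calb2 and Lypd1 were higher in old mice and no member passed as lower. These 2 of 7 calls stood against 29.7% of all genes called (24.1% higher and 5.57% lower), and the median over all genes was itself 0.89, so the calls of members were no more frequent than those of genes at large. Quantile normalization moved that median to -0.067 and the share of higher genes among calls from 81.2% to 50.2%.

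The 4 old libraries of Calb2 (37104 to 155568 normalized reads) all lay above the 2 young ones (3501 and 26545). The log2 difference was 3.26 (SE 0.69, limma adjusted p = 0.00378), or 7.03-fold as a ratio of means, and it was 1.80 to 4.72 without any 1 library, each past the threshold. Lypd1 was at 13719 to 18300 in old and at 675 and 7967 in young macrophages. Its log2 difference was 2.81 (SE 0.84, limma adjusted p = 0.0244), and without young macrophage replicate 15 it was 1.03 (adjusted p = 0.29). Fitted to the 6 macrophage libraries alone, Calb2 had an adjusted p = 0.059 and Lypd1 an adjusted p = 0.0799. In the authors' deposited table the adjusted p-values were 0.000252 for Calb2 (fold change 7.03) and 0.0506 for Lypd1 (fold change 3.79). The deposited fold changes of the other members were -7.55 for Prph, -2.69 for Pou4f1, 1.66 for Calb1, 2.65 for Th and 1.12 for Gata3. Their deposited adjusted p-values ran from 0.0771 (Prph) to 0.861 (Gata3). The sign for Prph was opposite to that of its limma difference.

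For the other members the 2 young libraries enclosed or overlapped the old ones. The log2 differences were 0.86 (SE 1.48) for Calb1, -0.17 (SE 1.53) for Pou4f1, 0.57 (SE 1.79) for Prph and 0.40 (SE 0.55) for Gata3, with limma adjusted p from 0.606 to 0.956. The value of Prph rested on which young library was kept: without young macrophage replicate 9 it was 5.21 (adjusted p = 0.00339), and without replicate 15 it was -4.07 (adjusted p = 0.00561), so that it passed in opposite directions. Th was at 0 in 5 of the 6 libraries and at 5 reads in the remaining one. Markers of glia and supporting cells also differed with age here: 7 of 10 Schwann cell and oligodendrocyte markers, 6 of 11 supporting cell markers and 6 of 11 hair cell markers were higher in old macrophages. Of the 10 pan-neuronal genes 1 was higher, Nefh, and the part of any of these in Calb2 and Lypd1 was not tested. Of 6 other type I genes, 4 were higher in old macrophages (Pcdh20, Lrrc52, Grm8 and Rxrg), and of 6 other type II genes, Etv4 and Plk5.

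Among nonmacrophages 0 of 7 members passed between old and young mice, where 1.72% of all genes were called by limma (1.64% higher and 0.0813% lower; 318 genes in all, while edgeR called 3 and DESeq2 1659). By edgeR and by DESeq2 no member was called either. At an unadjusted limma p under 0.05 there was 1 of 7 members, against 4262 of the 18441 genes tested. It was Calb1 (log2 difference 2.76, SE 1.21, unadjusted p = 0.0402, adjusted p = 0.197), whose 4 old libraries (117 to 299 normalized reads) just exceeded the 4 young ones (0 to 114). Calb2 also did not overlap, at 2725 to 4676 in old and 1328 to 2367 in young libraries (log2 difference 0.73, SE 0.56, limma adjusted p = 0.45). How many genes at large did not overlap was not counted. Pou4f1 leaned the other way (-2.25, SE 1.25, limma adjusted p = 0.291), through young replicates 2 and 5. Th spanned 208 to 499 in old and 0 to 1453 in young nonmacrophages, so the old libraries lay inside the young range. Of 11 hair cell markers, 5 were higher in old nonmacrophages, and their part in the values of Calb1 and Calb2 was not tested. The 318 calls became 3562 without young nonmacrophage replicate 14, 1076 and 1063 without young macrophage replicates 9 and 15, 167 without young nonmacrophage replicate 2, and 169 without old nonmacrophage replicate 10, 11 or 18, and no member was called in any of these fits.

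The interaction of sort and age asked whether the macrophage against nonmacrophage difference itself changed with age. No member passed (0 of 7, against 7.94% of all genes by limma, 6.98% higher and 0.954% lower). At an unadjusted limma p under 0.05 there were 2 of 7 members, against 4073 of the 18441 genes tested. These 2 were Lypd1 (log2 3.23, SE 1.08, adjusted p = 0.0954) and Calb2 (log2 2.53, SE 0.89, adjusted p = 0.109). Both the edgeR and the DESeq2 counts were 0 members. Without young macrophage replicate 9, Calb2, Lypd1 and Prph passed (3.99, 5.01 and 4.78), without replicate 15 Prph passed in the other direction (-4.49), and with quantile normalization Calb2 alone passed (3.09, adjusted p = 0.0488). Over all genes the 1464 calls became 2503 without replicate 9 and 5369 without replicate 15.

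Since neuronal RNA as a whole differed between the sorts, each member was set against the mean log2 level of the 10 pan-neuronal genes of its own library, which nearly cancels the library factor. The relative levels of the type I markers then overlapped between old macrophages and nonmacrophages, and those of the type II markers lay far lower in macrophages. The differences in relative log2 level were 1.09 for Calb2, 0.34 for Calb1, 0.19 for Lypd1 and 1.53 for Pou4f1, with overlapping groups and exact permutation p = 0.114, 0.571, 0.314 and 0.0571. They were -5.92 for Prph, -11.78 for Th and -4.90 for Gata3, without overlap. How many genes at large were apart in relative level was not counted. The pan-neuronal mean itself was 13.43 to 13.88 in old macrophages and 9.56 to 10.24 in old nonmacrophages. A gene that does not follow neuronal RNA is lowered here by that gap, so these values do not measure type II neurons. The value of Th, at 0 in 3 of 4 macrophage libraries, ran from -14.37 to -8.84 under other settings. For Prph, Th and Gata3 the two-sided exact permutation p was 0.0286, the smallest that 4 against 4 libraries can give. It was 0.133 after adjustment over 14 tests, and 0 of 14 passed. With that smallest p, a few members could not pass after adjustment however far apart their libraries lay. The count of 0 therefore decides nothing about them.

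By library, Calb2 exceeded the pan-neuronal mean by 2.99, 3.37, 3.50 and 1.57 on the log2 scale in old macrophages and by 1.53 to 1.95 in old nonmacrophages. Gata3 lay below it by 2.01 to 3.30 in old macrophages (values of -3.30 to -2.01) and above it by 1.38 to 2.59 in old nonmacrophages. Lypd1 sat close to the pan-neuronal mean in both, at 0.36 ± 0.28 and 0.17 ± 0.10 (SD, n = 4 each). In young macrophages, where 2 libraries are too few for an exact test to reach the threshold, Calb2 stood at 1.55 and -1.21, Lypd1 at -0.19 and -3.59 and Calb1 at -3.37 and -1.32. The order of the libraries was therefore not the same for the 3 subtype markers. Between old and young nonmacrophages no relative level passed (exact permutation p from 0.0857 to 0.6).

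**Figure D3:**
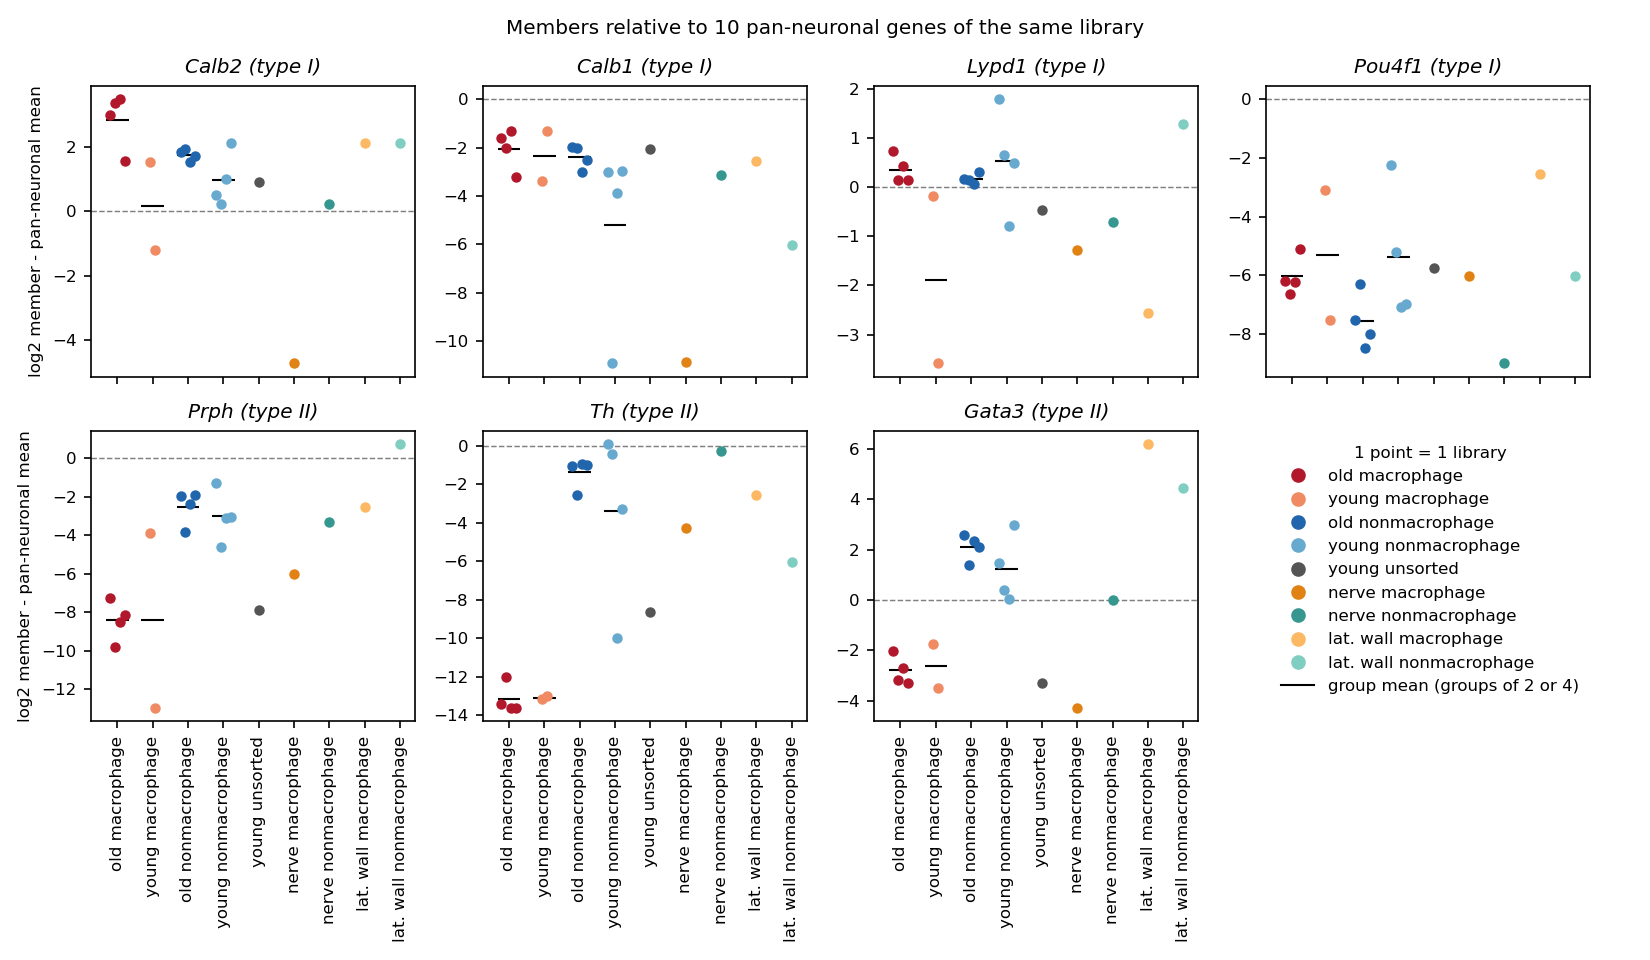
Level of each member minus the mean of 10 pan-neuronal genes in the same library, both as log2(normalized reads + 1), 1 point per library, with bars at the means of groups of 2 or 4 and a dashed line at equality. Old macrophages and old nonmacrophages overlap for the 4 type I markers and are apart for Prph, Th and Gata3. The pan-neuronal level itself was higher in old macrophages than in old nonmacrophages, and it was low in the lateral wall libraries.

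The members' levels were compared with one another per kilobase of exon, since a longer transcript gives more reads. In old macrophages Calb2 dominated, at a mean of 60618 normalized reads per kb, followed by Lypd1 (2325), Calb1 (706), Gata3 (478), Pou4f1 (44.2), Prph (20.5) and Th (0.288). Neighbours in that order overlapped in their library ranges for Calb1 and Gata3 and for Pou4f1 and Prph. In old nonmacrophages the order was Calb2 (1915), Gata3 (1044), Th (164), Lypd1 (155), Prph (89.7), Calb1 (39.8) and Pou4f1 (1.17), and from Th to Calb1 each overlapped the next.

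As a share of the 7 members' summed level per kb, the type II markers made up 0.455% to 1.42% in old macrophages and 24.0% to 46.4% in old nonmacrophages. In the young cochlea the shares were 5.53% and 6.09% in macrophages and 20.1% to 49.4% in nonmacrophages. By group means Gata3 made up most of the type II share in each of the 4 sorted whole-cochlea groups. The unsorted young library had a type II share of 2.22%, nearer to the macrophage libraries than to the nonmacrophage ones.

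**Figure D4:**
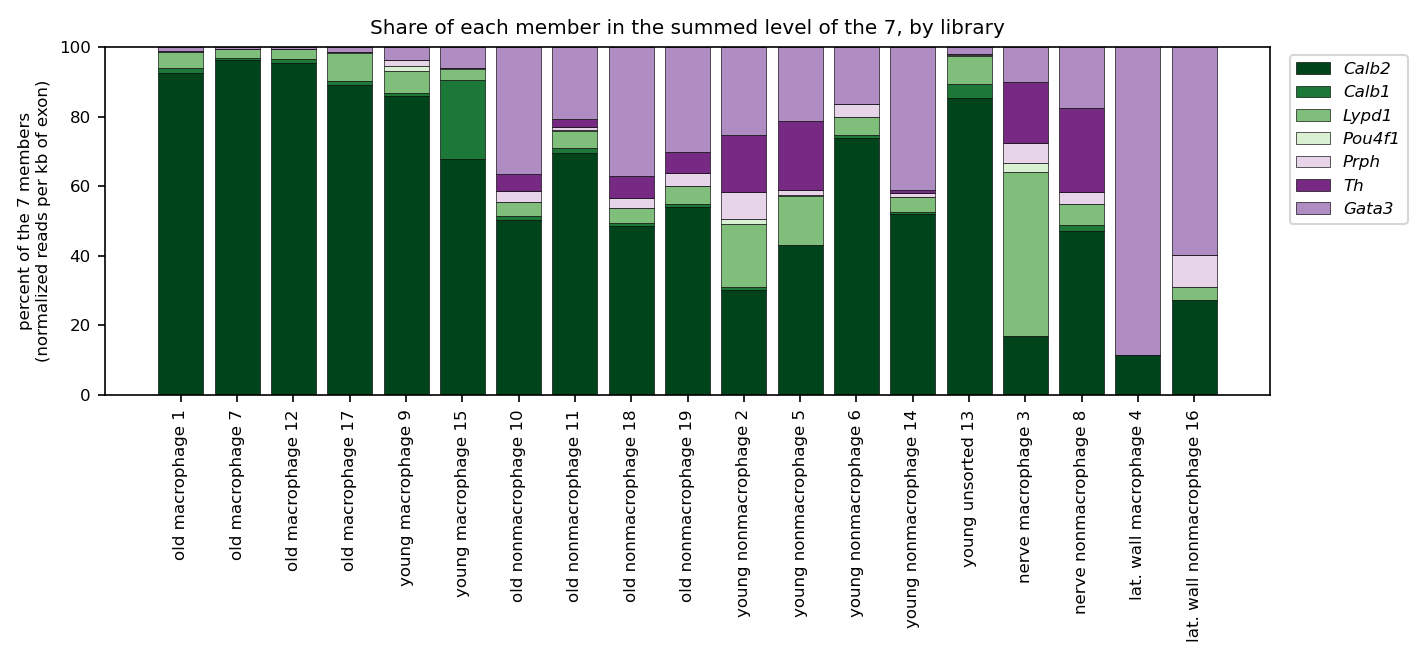
Percent of each member in the sum of the 7, from normalized reads per kb of exon, 1 bar per library. Calb2 fills most of the whole-cochlea macrophage and unsorted bars, Gata3 takes a larger part of the whole-cochlea nonmacrophage bars, the nerve macrophage bar is 46.9% Lypd1 and 17.0% Calb2, and the lateral wall bars are mostly Gata3.

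The single libraries, which allow no test between conditions, placed the members within the young cochlea. The unsorted library held Calb2 at 26090 normalized reads, Calb1 at 3326, Lypd1 at 9974, Pou4f1 at 255, Prph at 56.6, Th at 33.6 and Gata3 at 1378. All 4 type I values exceeded those of every young nonmacrophage library. Its pan-neuronal sum was 268534, also above every nonmacrophage library.

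In the auditory nerve, the nonmacrophage library held the highest Th value of all 19 libraries, 1583 normalized reads, and the nerve macrophage library held 95.8, the only macrophage library with more than 5 reads of Th. Nonmacrophages exceeded macrophages there 32.8-fold for Calb2 (exact 95% interval 24.2 to 45.7, counting error only), 20.6-fold for Gata3 (15.8 to 27.3) and 16.5-fold for Th (12.7 to 21.9). Lypd1 differed least, 1.55-fold (1.39 to 1.74). Calb1, at 222 against 0, was at least 44.9-fold higher in the nerve nonmacrophage library. Pou4f1 ran the other way on 17 against 2 reads (ratio 10.0, interval 2.38 to 89.6). The direction of Calb2 and Calb1 in the nerve was thus opposite to that in whole cochleae, while the pan-neuronal sums of the nerve libraries were close, at 40654 in macrophages and 36704 in nonmacrophages.

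The lateral wall, which holds the stria vascularis and spiral ligament and no spiral ganglion, serves as a check on the marker labels. Its nonmacrophage library had a pan-neuronal sum of 5450 normalized reads, Calb2 at 280, Lypd1 at 156, and no reads of Calb1, Pou4f1 or Th. Yet Gata3 stood at 1398 and Prph at 107, and its macrophage library held Gata3 at 429 with Calb2 at 24.5 and the other 5 members at 0. Nerve over lateral wall, both nonmacrophage, was 8.14-fold for Calb2 (exact 95% interval 6.98 to 9.53), 7.68-fold for Lypd1 (6.24 to 9.52), at least 48.5-fold for Calb1 and at least 345-fold for Th, but 1.83-fold for Prph (1.36 to 2.47) and 1.39-fold for Gata3 (1.28 to 1.51). Across all 19 libraries the Pearson correlation of log2 level with the pan-neuronal mean was 0.84 for Calb2, 0.77 for Calb1, 0.92 for Lypd1 and 0.81 for Pou4f1. It was 0.17 for Prph, -0.10 for Th and 0.13 for Gata3. Over the 19 libraries together, which pool both sorts, Prph, Th and Gata3 therefore did not follow neuronal RNA. The correlation within nonmacrophages alone was not computed, and there Th was highest in the nerve library and without reads in the lateral wall one. The values of Prph, Th and Gata3 are not given as levels of type II neurons.

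Within the set, Calb2 and Calb1 (r = 0.87), Calb2 and Lypd1 (r = 0.87) and Lypd1 and Pou4f1 (r = 0.77) varied together most closely over the 19 libraries, which share sort, depth and age. Among the type II markers r was 0.58 for Prph and Gata3, 0.46 for Prph and Th, and 0.33 for Th and Gata3. Each member was also set against 14233 genes by the same correlation. The patterns most like Calb2 were those of Dbn1 (0.96), Isl1 (0.96), a homeodomain factor of spiral ganglion neurons, and the long noncoding RNA gene Meg3 (0.95). For Calb1 they were Scrt1 (0.95), Otud7a (0.92) and Shox2 (0.89), and for Pou4f1 Ifitm10, Thy1 and Celf4 (0.92 each). For Lypd1 they were Gpr39 (0.97), its overlapping neighbour, Scg5 (0.96) and Rgs7bp (0.96).

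The type II members had other neighbours. For Prph these were Bex4 (0.95), Bhmt2 (0.93) and Samd4 (0.92), and for Th they were Ninj2 (0.91), Nkx2-2 (0.89) and Nipal4 (0.89). For Gata3 they were the F-box protein gene Fbxo2 (0.97), Tex9 (0.94) and Skp1a (0.91). No neighbour was shared between members.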

How the data were processed

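RNA was sequenced from 19 mouse samples, each isolate from 1 mouse, with poor-quality RNA left out and some libraries sequenced again, per the labels' protocols. The submitters' processing notes name mm10, TopHat2, Partek and DESeq2. The counting rule is not given in the sources used here. The table the authors deposited holds 1 signal value per gene and library, called normalized reads per the file headers, and the values themselves show counts scaled by 1 factor per library. For 2 comparisons it also holds the authors' deposited p-values, their adjusted forms, and linear ratios (fold changes).

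Whole reads were recovered from the steps of low values: 100% of values under 10000 reads, and 99.89% of all, were whole within 0.1 read. Replicates differed by more than sampling noise in every pair (chi-square over its degrees of freedom 48.7 to 884). The main test was limma 3.58.1 (R 4.3.3) with trend and robust variance on log2(value + 1), a scale that understates changes of low genes, over 14 libraries in 4 groups, with Benjamini-Hochberg adjustment over 18441 genes. The interaction was a contrast of that fit. Relative levels used two-sided exact permutation tests. Alternatives were edgeR 4.0.16 and DESeq2 1.42.0 on recovered reads, other scalings, weights, filters, pseudocounts, fits of only the groups compared, and leaving out each library. The limma step was tested on simulated data. Exon lengths came from GENCODE M21 for mm10, in which 18294 symbols were found.

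Floors (3 reads, or 1.38 to 5.33 normalized reads by library) and 95% intervals cover counting error only. All 7 members are named, together with the 2 most abundant genes of the other type I and type II lists, and the 3 genes most correlated with each member (mean of at least 20 normalized reads). Other list genes named because they were called, or were not called, were chosen after their values were seen. The members, lists and tests were chosen with earlier results of these data known.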

Additional observations from a re-analysis of the deposited data

Results flagged for a closer look

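Among 21 sets of 4 libraries (7 members in the 3 groups of 4), 4 sets had 1 library far from the other 3, by Dixon's test of its gap against the range. Chance alone marks about 1 in 20 groups where values are normally distributed. The test was run on untransformed normalized reads, and all 4 flagged libraries were the highest of their set, so that rate need not hold here. The log2 scale of the main test was not used for it. Pou4f1 stood at 359 normalized reads in old macrophage replicate 17, above 151 to 165 in the others, and at 14.5 in old nonmacrophage replicate 11, above 1.67 to 3.08. Prph stood at 386 in young nonmacrophage replicate 2, above 64.7 to 117. Th stood at 2.72 in old macrophage replicate 7, which is 5 reads, with 0 in the others. With the other 3 tied at 0 any read gives the full gap, so this set says nothing of a distant library and 3 of the 4 remain.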

How the results depend on the processing

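No paired analysis was possible, because each replicate number occurs only once in the series and does not show which libraries came from the same mouse. The tests treated all libraries as independent. Between old macrophages and nonmacrophages, 4 to 7 members passed under the other settings and 4 to 7 without any 1 library. Among young libraries the 3 calls became 0 with library quality weights, which gave both young macrophage libraries 0.0666, and 0 with only the groups compared (2 to 4 without any 1 library). Between old and young macrophages the 2 calls became 0 with weights, 0 with only the groups compared, 1 with edgeR and 1 with DESeq2 (2 to 3 without any 1 library). The interaction's 0 became 1 with quantile normalization and 0 to 3 without any 1 library, and the age comparison of nonmacrophages stayed at 0 under every setting run. No relative level passed after adjustment under any setting run, but with so few libraries a few members could not have passed. The pseudocount of 10 ended the call of Th among young libraries (adjusted p = 0.0505), and quantile normalization did so too (adjusted p = 0.0992).

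Among the fitted differences, signs turned only for those that had not passed. For Prph, these were 0.89 (edgeR) and 0.95 (DESeq2) among young libraries, -1.51 (quantile), -0.76 (pseudocount 10), -2.85 (edgeR) and -2.95 (DESeq2) for old against young macrophages, and -1.52 (quantile), -0.28 (weights), -1.14 (pseudocount 10), -2.98 (edgeR) and -3.09 (DESeq2) for the interaction. For Th they were -1.78 (quantile) between macrophages by age, -0.70 (edgeR) and -0.71 (DESeq2) between nonmacrophages by age, and 3.83 (edgeR) and 2.08 (DESeq2) for the interaction. Pou4f1 was 0.19 with a common total between macrophages by age. The cause was not tested. Leaving out 1 library gave, among young libraries, -1.09 to 2.46 (Lypd1), -6.97 to 2.31 (Prph) and -1.69 to 0.20 (Gata3). Between macrophages by age it gave -0.079 to 1.80 (Calb1), -2.48 to 2.13 (Pou4f1), -4.07 to 5.21 (Prph), 0 to 0.63 (Th) and -0.55 to 1.35 (Gata3), and between nonmacrophages by age -0.23 to 3.27 (Th). For the interaction it gave -0.22 to 4.39 (Pou4f1), -4.49 to 4.78 (Prph), -2.80 to 0.70 (Th) and -1.37 to 0.53 (Gata3).

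Over all genes, the 3431 calls between the old sorts became 11167 with weights and 10654 with only the old libraries, the 5814 between the young sorts 575 and 1426, and the 5468 between macrophages by age 362 with weights. The 318 calls between nonmacrophages by age became 89 (quantile), 190 (weights), 132 (mean of at least 10), 175 (only the groups compared), 3 (edgeR) and 1659 (DESeq2). The 1464 interaction calls became 638 (quantile), 148 (weights) and 2978 (DESeq2). Without young macrophage replicate 9 or 15 the calls between the old sorts became 5477 or 5471, and without replicate 15 those between macrophages by age became 8490. Quantile normalization moved the share of higher calls from 29.1% to 45.8% between the young sorts and from 88% to 65% for the interaction. Age cannot be told apart from depth, and 2 young macrophage libraries that differ from each other limit each comparison that uses them.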
